A study of Mus musculus with 3 samples.

Results

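The cells described here are dermal macrophages chosen by their own counts, namely those that carried at least 5 unique molecular identifiers (UMIs, each standing for 1 captured RNA molecule) of Ccl8 and none of Lyve1. A cell was taken as a macrophage when at least 4 of the 7 genes C1qa, C1qb, C1qc, Ms4a7, Pf4, Csf1r and Mrc1 had a UMI, Cd3e and Cd3d had none, and Krt14 and Krt5 together had under 5. By this rule 2949 of 7202 macrophages were Ccl8-high and Lyve1-negative, out of 16604 cells kept after filtering and 19366 deposited barcodes. The other macrophages were 2265 Ccl8-low Lyve1-negative cells and 1988 Lyve1-positive cells.

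The study profiled dorsal skin of 8-week-old male C57Bl/6 mice in telogen, the resting phase of the hair cycle, by droplet single-cell RNA sequencing after CD45+ cells had been enriched on magnetic beads. WT_Ctrl came from wild-type skin without ultraviolet B (UVB) light, and WT_UV from wild-type skin given 3 UVB exposures on alternate days. RP_UV had the same 3 exposures in a mouse of the genotype Rosa26-rtTA; Tre-Ptgs2, in which doxycycline switches on rat Cox-2 (Ptgs2) throughout the body and not in macrophages alone. Each group had 1 library from a single mouse. Hence no difference between groups had a replicate check, and each comparison is of libraries and not of conditions.

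CCL8 is a chemokine that recruits leukocytes through CC chemokine receptors, and its gene lies in a cluster with those of the monocyte attractants CCL2, CCL7 and CCL12. Resident macrophages of the dermis take up debris, produce the C1q subunits of complement and growth factors such as IGF1, and are divided in mouse skin by LYVE1, which marks perivascular cells, and by MHC class II, which presents antigen to T helper cells. CCR2 marks cells that arrived lately from blood monocytes.

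The deposited barcodes held 34985549 UMIs in WT_Ctrl, 82722013 in WT_UV and 37689836 in RP_UV, and the kept cells had a median of 4246, 10557 and 3774 UMIs in the same order. Per the labels, WT_UV was run on a flow cell other than the one shared by WT_Ctrl and RP_UV, so that the flow cell and the group cannot be told apart in the 2 comparisons that involve WT_UV. RP_UV and WT_Ctrl shared their flow cell, and their comparison is given as well. Pairs of libraries shared 8, 10 and 11 cell barcodes, and 1 of these was a Ccl8-high cell in both libraries.

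There were 1050 Ccl8-high Lyve1-negative macrophages in WT_Ctrl, 1040 in WT_UV and 859 in RP_UV. They made up 55% of the macrophages of WT_Ctrl (Wilson 95% interval 52.8 to 57.2), 39.3% of those of WT_UV (37.4 to 41.1) and 32.5% of those of RP_UV (30.7 to 34.3). Among Lyve1-negative macrophages alone their share was 74%, 49.1% and 51.2%. Of all kept cells they were 19.8%, 19.9% and 14.2%, so the lower share in WT_UV than in WT_Ctrl held within macrophages and not over all cells. These shares were set by the rule and depend on depth, and they are given as a description without a test.

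**Figure D1:**
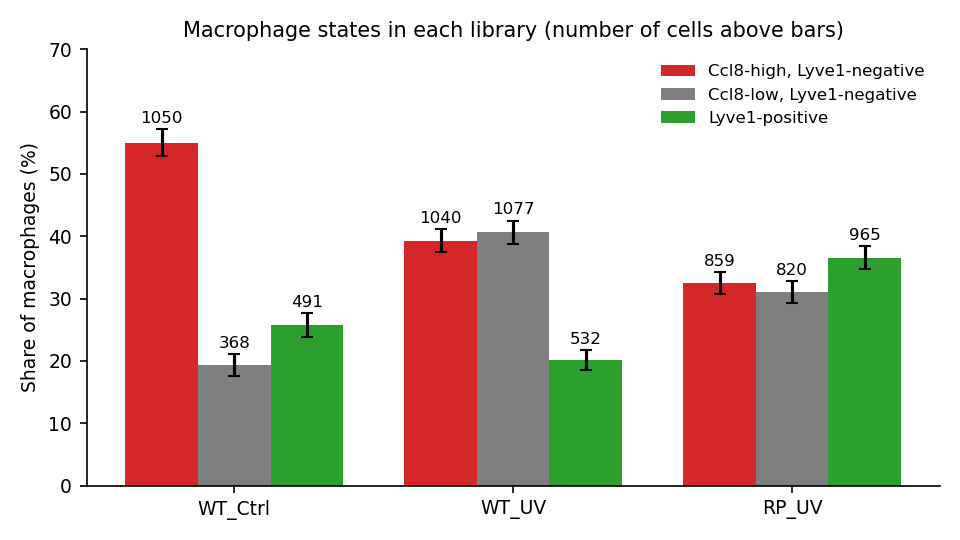
Share of macrophages (%) that were Ccl8-high Lyve1-negative, Ccl8-low Lyve1-negative or Lyve1-positive in each of the 3 libraries, with Wilson 95% intervals that cover counting error only and the number of cells above each bar. The Ccl8-high bar is the tallest in WT_Ctrl at 55%, level with the Ccl8-low bar in WT_UV, and close to both others in RP_UV.

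The cells carried the macrophage genes named for them. In counts per 1000000 UMIs (CPM) of the summed cells, the platelet factor 4 gene Pf4 stood at 5037 in WT_Ctrl, 5480 in WT_UV and 7495 in RP_UV, the complement gene C1qc at 3656, 2834 and 4164, and Ms4a7, a membrane protein gene of tissue macrophages, at 677, 1011 and 1337. These 3 genes took part in the choice of cells. The growth factor gene Igf1 and the carbonyl reductase gene Cbr2 did not. Igf1 was detected in 92.6%, 85.5% and 71.2% of the cells, and Cbr2 in 89%, 88.7% and 90.5%. In T cells, which should lack both, Igf1 was detected in 1.97%, 3.27% and 0% of cells and Cbr2 in 2.62%, 5.56% and 9.8%, where 0 of 51 cells in RP_UV allows a share of up to 5.88%. The median depth was 2663, 6103 and 1951 UMIs in T cells and 3850, 11532 and 4841 UMIs in the Ccl8-high cells.

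Ccl8 itself took a large share of the RNA of these cells. The median cell held 83 Ccl8 UMIs in WT_Ctrl, 124 in WT_UV and 36 in RP_UV, and the most loaded cell 586, 3207 and 904. Ccl8 made up 2.76%, 2.05% and 1.34% of all UMIs of the cells, and they held 82.2%, 62.9% and 51% of the Ccl8 UMIs of their library. These values were in part set by the rule and are no comparison of the libraries. In Lyve1-positive macrophages, where the rule put no limit on Ccl8, it was 1.05%, 1.91% and 0.967% of UMIs, so there the highest value was in WT_UV.

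Some Ccl8 was also found in cells of other types, and whether it came from free RNA or from cells caught together was not tested. In T cells Ccl8 had at least 1 UMI in 26.6%, 67.9% and 51% of cells and at least 5 UMIs in 0.328%, 4.91% and 0% (again 0 of 51, up to 5.88%). In keratinocytes, with median depths of 6149, 13535 and 6674 UMIs, the share with at least 5 Ccl8 UMIs was 0.112%, 7.08% and 1.05%. Both shares were highest in WT_UV, the deepest library. Of the Ccl8-high cells, those with only 5 to 9 Ccl8 UMIs numbered 71 (6.76%) in WT_Ctrl, 141 (13.6%) in WT_UV and 158 (18.4%) in RP_UV.

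Cells with Ccl8 just inside and just outside the limit are described without a test. Cells with exactly 5 Ccl8 UMIs, just inside, numbered 16 in WT_Ctrl, 43 in WT_UV and 46 in RP_UV, and had 1244, 153 and 174 CPM of Igf1 and 641, 988 and 87.1 CPM of the chemokine receptor gene Ccr2. Cells with exactly 4, just outside, numbered 13, 85 and 63, and had 849, 51.4 and 187 CPM of Igf1 and 1221, 977 and 229 CPM of Ccr2. In WT_UV the cells with 5 to 9 Ccl8 UMIs had 175 CPM of Igf1, 784 of Ccr2 and 1132 of the interleukin gene Il1b, while the 561 cells with 100 or more had 991, 74 and 88.2. The same ends of the range in WT_Ctrl had 980 and 1182 CPM of Igf1, 581 and 62.7 of Ccr2 and 143 and 33.5 of Il1b. In RP_UV they had 231 and 492 CPM of Igf1, 134 and 9.35 of Ccr2 and 990 and 160 of Il1b. Ccr2 and Il1b were thus lower, and Igf1 higher, at the high end of Ccl8 in every library, with the widest span of Igf1 in WT_UV.

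**Figure D2:**
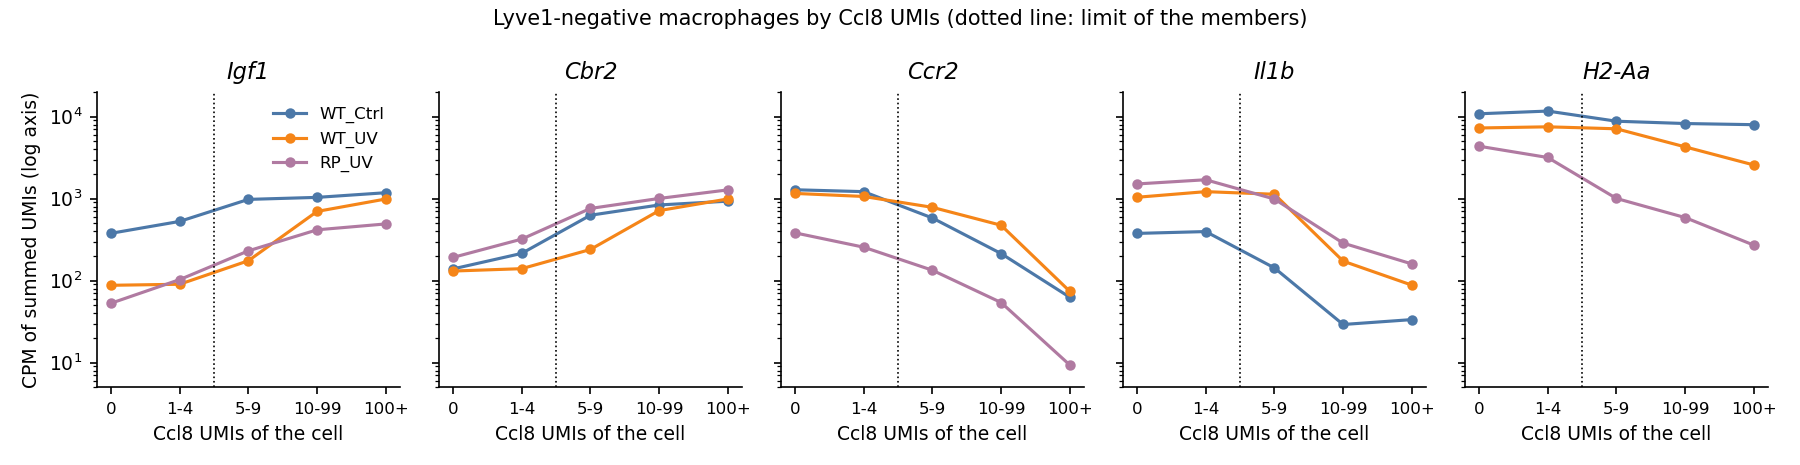
Level (CPM of summed UMIs, log axis) of Igf1, Cbr2, Ccr2, Il1b and H2-Aa in Lyve1-negative macrophages by the Ccl8 UMIs of the cell, 1 line per library, with the limit of the Ccl8-high cells dotted. Igf1 and Cbr2 go up and Ccr2 and Il1b go down along the axis, and the WT_UV cells with 5 to 9 Ccl8 UMIs lie near the cells below the limit.

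Within the Ccl8-high cells, thinned to 2000 UMIs each, Ccl8 went with the C-type lectins of the Cd209 family. Spearman's rho over cells was 0.34 in WT_Ctrl (927 cells), 0.58 in WT_UV (992 cells) and 0.41 in RP_UV (754 cells). Between Ccl8 and Ccr2 rho was -0.31, -0.46 and -0.21, and between Ccl8 and the core MHC class II genes -0.01, -0.29 and -0.04. The cells were chosen by their Ccl8 UMIs before thinning, so the rule and the depth set the range of Ccl8 behind these values. After thinning, 99.8%, 95.3% and 98.5% of the cells still had a Ccl8 UMI, and the rho values are no comparison of the libraries. The cells of a library share their animal and their run, and these values describe that library.

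The genes that went with the Ccl8-high state were sought by setting these cells against the Ccl8-low Lyve1-negative macrophages of the same libraries. UMIs were summed per library and state and tested with edgeR's quasi-likelihood test, with the library as a block and Benjamini-Hochberg adjustment over 11108 genes. The genes of the rule stayed out of the test. Since the cells were divided by their own Ccl8 and Lyve1 UMIs, the test shows which other genes differed along that division on average over the 3 libraries. A called gene need not have gone the same way in each library. It called 1505 genes higher (13.5%) and 1816 lower (16.3%) in the Ccl8-high cells at an adjusted p under 0.05. Without WT_UV it called 739 and 920, 745 and 852 with all cells at 2000 UMIs, and without the library block 360 and 373.

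Lectin, scavenger receptor and complement genes were among the 12 with the largest log2 differences above the Ccl8-low cells, taken from genes with a mean of at least 50 CPM. Cd209b, a C-type lectin that binds microbial sugars, stood at 395 against 31 CPM in WT_Ctrl, 356 against 24.9 in WT_UV and 337 against 25.5 in RP_UV. Its log2 difference was 3.69 ± 0.11 (SE; edgeR adjusted p = 8.03e-07), and the 3 libraries gave nearly the same step. Colec12, a scavenger receptor with a collectin domain, stood at 122 against 12.5, 90.3 against 2.82 and 119 against 13.1 CPM (log2 difference 3.83 ± 0.33; adjusted p = 0.000148). C6, a component of the membrane attack complex, was at 143, 84.7 and 46.9 CPM against 17.8, 0.845 and 6.91 (4.06 ± 0.56; adjusted p = 0.000875). C4b, the complement protein of the classical and lectin pathways, was at 579, 454 and 201 CPM against 98.2, 11.6 and 35.8 (3.28 ± 0.50; adjusted p = 0.00138).

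The lectin genes Cd209g, Cd209f and Cd209d had log2 differences of 4.19, 3.77 and 2.73. The Cd209 genes are near-identical copies in part, so that reads could be divided between them uncertainly. Others of the 12 highest were Npl, which cleaves sialic acid (2.92), Ednrb, a receptor for endothelin (2.79), the membrane protein gene Pmp22 (2.64), the calcium-binding protein gene Chp2 (3.29) and the copper-carrying ferroxidase ceruloplasmin, Cp (3.01). All of these passed the test, and Cp lost its call without WT_Ctrl (2.96; edgeR adjusted p = 0.0698).

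Of the 17 genes of resident dermal macrophage identity tested, 15 were higher in the Ccl8-high cells and none lower, with a median log2 difference of 2.03 against -0.02 over all genes. Folr2, a folate receptor, stood at 873 against 187 CPM in WT_Ctrl, 568 against 42.8 in WT_UV and 763 against 221 in RP_UV. The haemoglobin scavenger receptor gene Cd163 stood at 873 against 279, 832 against 138 and 777 against 202 CPM (log2 difference 1.96 ± 0.21; adjusted p = 0.000305). Gas6, which bridges dying cells to their receptors, differed by 2.41 and the lectin gene Clec10a by 2.13. Igf1 stood at 1107 against 446, 814 against 89.8 and 416 against 83.7 CPM (2.09 ± 0.40; adjusted p = 0.00429), and Cbr2 at 874 against 173, 827 against 138 and 1059 against 271 (2.20 ± 0.15; adjusted p = 0.000117). The lectin gene Mgl2 (0.07; adjusted p = 0.797) and the leukotriene synthase gene Ltc4s (-0.07; adjusted p = 0.832) did not pass.

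The chemokine genes of the Ccl8 cluster were higher too, but the wider chemokine list was not. Ccl12 stood at 145 against 40.2 CPM in WT_Ctrl, 172 against 34.9 in WT_UV and 533 against 101 in RP_UV (log2 difference 2.22 ± 0.38; edgeR adjusted p = 0.00241). Ccl7 stood at 219 against 34.9, 350 against 111 and 1034 against 502 (1.60 ± 0.24; adjusted p = 0.00134). Ccl2 differed by less, with 109 against 75.8, 236 against 149 and 790 against 536 CPM (0.51 ± 0.11; adjusted p = 0.00716). The eosinophil attractant gene Ccl24 also passed (1.49; adjusted p = 0.00323). Of 19 chemokine genes tested, 5 were higher and 8 lower, with a median of -0.89. Among the lower was Cxcl2, which draws in neutrophils. It stood at 25.8 against 366, 236 against 1024 and 691 against 3020 CPM (-2.65 ± 0.43; adjusted p = 0.00199).

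Complement genes were higher in 6 of 11 tested and lower in none (median 0.97), and iron and heme genes in 7 of 12 and none (0.77). Heme oxygenase Hmox1, which breaks down heme, stood at 302 against 182, 417 against 146 and 663 against 285 CPM, and the transferrin receptor gene Tfrc differed by a log2 value of 1.80. Of the macrophage transcription factor genes, 6 of 17 were higher and 5 lower. Maf (1.15), Mef2c (0.65) and Spic (1.95), which takes part in the handling of red cell iron, were higher. Klf4 (-0.93) and the lipid-sensing receptor gene Pparg (-1.60) were lower, and Pparg lost its call without WT_UV (-1.51; edgeR adjusted p = 0.0547).

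Genes of recent monocyte origin, inflammation, antigen presentation and cell division were among those on the lower side. Ccr2 stood at 157 against 1254 CPM in WT_Ctrl, 263 against 1086 in WT_UV and 50.5 against 305 in RP_UV (log2 difference -2.61 ± 0.20; edgeR adjusted p = 0.000135). Of 16 monocyte-derived genes 12 were lower and 1 higher, with a median of -1.16. The elastase gene Mmp12 stood at 3.11 against 63.9, 31.1 against 236 and 1.77 against 152 CPM (-4.08 ± 0.46; adjusted p = 0.000344), and fibronectin, Fn1, at 12.9 against 528, 45 against 274 and 12.2 against 262 (-3.95 ± 0.41; adjusted p = 0.000276). Ear2 (-3.90) and Lyz1 (-3.46), a ribonuclease and a lysozyme gene, were lower as well, and both have near-identical copies.

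Il1b stood at 37.1 against 386, 248 against 1175 and 338 against 1628 CPM in the Ccl8-high and the Ccl8-low cells (log2 difference -2.61 ± 0.43; adjusted p = 0.00195). Of 12 inflammatory cytokine genes 10 were lower and 1 higher, with a median of -2.01. Tnf (-1.65) and Ptgs2 (-2.18) were among the lower. The immediate early genes of the AP-1 family and its partners were lower in 13 of 15 (median -1.52), with Fos at 459 against 1375, 685 against 2200 and 522 against 1829 CPM. The list of tissue dissociation genes, which shares Fos and others with it, was lower in 9 of 13 and higher in none (-0.78), and its part in these differences was not tested. MHC class II genes were lower in 11 of 13 and higher in none (-1.56). NF-kB feedback genes were lower in 11 of 14 (-1.19), and the inhibitor gene Nfkbia differed by -1.63. Cell cycle genes were lower in 14 of 15 (-2.11), and the proliferation marker Mki67 stood at 13.4 against 21.8, 9.33 against 53.9 and 14.8 against 66.8 CPM. Glycolysis and hypoxia genes were lower in 12 of 14 (-0.62). The calls in these lists and in the lists above were thus on 1 side in most cases, with the chemokines and the transcription factors as the mixed ones.

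Markers of other cells were lower in part: 5 of 7 neutrophil markers tested and 7 of 10 dendritic cell markers. The dendritic cell median was -2.64. Endothelial markers were lower in 3 of 5. T cell markers had 1 of 3 higher and 1 lower, and B cell markers 1 of 2 higher. Summed, dendritic cell markers stood at 576 against 313 CPM in WT_Ctrl, 498 against 631 in WT_UV and 162 against 349 in RP_UV. Summed neutrophil markers stood at 39.7 against 44.8, 80.6 against 104 and 333 against 1008. Fibroblast and keratinocyte markers had no call in either direction. The part of doublets in the differences was not tested beyond leaving out cells with UMIs of another type, which gave 1418 genes higher and 1609 lower.

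**Figure D3:**
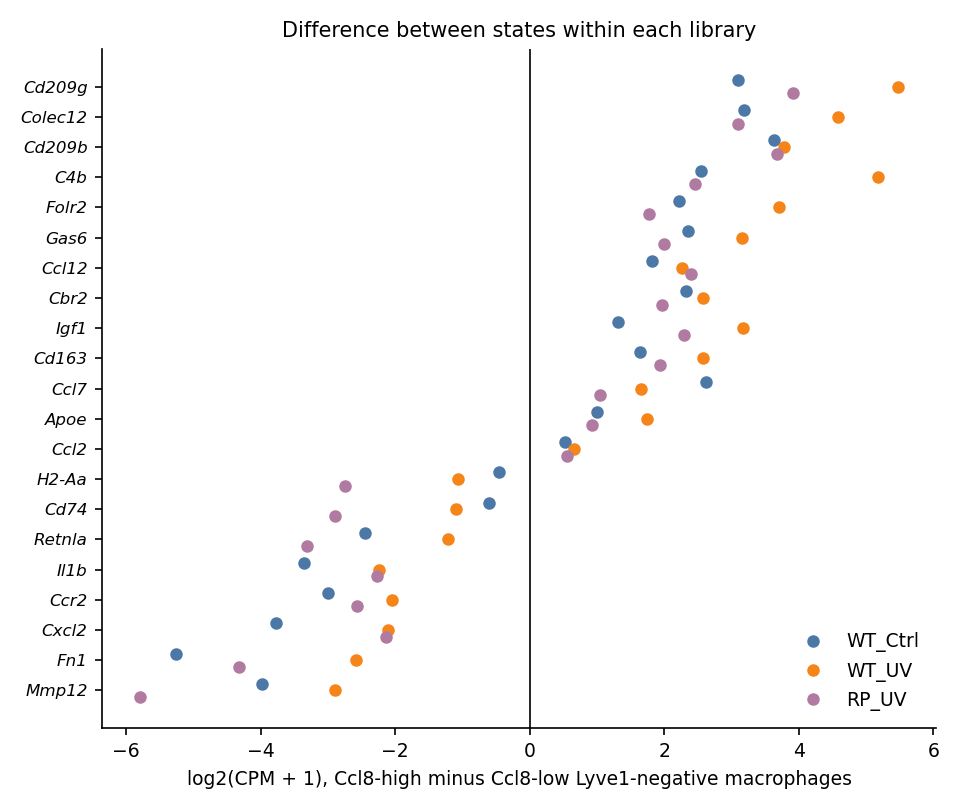
Difference in log2(CPM + 1) between Ccl8-high and Ccl8-low Lyve1-negative macrophages of the same library, 1 point per library. The lectin, complement and resident genes and Ccl12, Ccl7 and Ccl2 lie to the right of 0 in all 3 libraries, and H2-Aa, Cd74, Retnla, Il1b, Ccr2, Cxcl2, Fn1 and Mmp12 to the left in all 3.

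Against the Lyve1-positive macrophages few genes were called for the same cells. Any Lyve1 UMI made a cell Lyve1-positive, and a cell that expresses Lyve1 can lack a UMI of it at limited depth. With enough Ccl8 such cells would count among the Ccl8-high cells, and their number was not tested. A gene without a call may still differ. The test called 67 genes higher (0.603%) and 57 lower (0.513%) of 11108. None of the identity genes Igf1 (0.20; edgeR adjusted p = 0.918), Cbr2 (-0.24; 0.603), Folr2 (-0.85; 0.368) and Cd163 (-0.32; 0.616) passed. The calls rested on the library block and on all 3 libraries. Without the block 0 genes were called in either direction by edgeR, with 357 at an unadjusted p under 0.05, and DESeq2 with the block called 94 and 76. Left out in turn, WT_Ctrl, WT_UV and RP_UV gave 30, 16 and 41 genes higher and 10, 45 and 18 lower. Of 31 called genes of the lists and ranks looked at one by one, 20, 15 and 16 lost their call in the same order. Of the 16 called genes described next, 14 lost their call without at least 1 library, at edgeR adjusted p from 0.053 to 0.195, and Timd4 and Ltc4s kept it in each case.

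Genes higher than in Lyve1-positive cells included receptors and adhesion molecules of myeloid cells. Cd300c2, an immune receptor, stood at 32 against 18 CPM in WT_Ctrl, 102 against 32.9 in WT_UV and 112 against 41.4 in RP_UV (log2 difference 1.37 ± 0.21; edgeR adjusted p = 0.0183). Slamf7, a receptor of the SLAM family, stood at 122 against 48, 67.9 against 36.4 and 18.1 against 11.3 (1 ± 0.14; adjusted p = 0.013). Cxcl16, a membrane-bound chemokine that also scavenges oxidised lipid, stood at 78.9 against 53, 115 against 63.4 and 85.2 against 41.2 (0.85 ± 0.10; adjusted p = 0.00805). Cxcl9, an interferon-induced T cell attractant, stood at 87.3 CPM against 0 in WT_Ctrl, where 0 UMIs allow up to 1.5 CPM, 40.5 against 3.58 in WT_UV and 14.2 against 3.02 in RP_UV, and passed with edgeR adjusted p = 0.0166. The aryl hydrocarbon receptor gene Ahr (0.87), the galectin gene Lgals3 (0.85), the complement gene C3 (1.09) and Cd93 (1.15) passed as well, as did Pira2 (1.08), a receptor gene with close copies.

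Lower than in Lyve1-positive cells were Retnla, Timd4, Ltc4s and Fcna. Retnla, a secreted product of alternatively activated macrophages, stood at 1677 against 12501 CPM in WT_Ctrl, 515 against 2759 in WT_UV and 36.3 against 200 in RP_UV (log2 difference -2.57 ± 0.35; edgeR adjusted p = 0.0128). Timd4, a receptor for phosphatidylserine on long-lived resident macrophages, stood at 37.8 against 176, 14.4 against 65 and 13.1 against 55.3 (-2.16 ± 0.16; adjusted p = 0.00139). The ficolin gene Fcna stood at 50 against 533, 70.2 against 218 and 109 against 402 (-2.21 ± 0.30; adjusted p = 0.0128), and Ltc4s at 62.4 against 375, 22 against 107 and 38.5 against 164 (-2.32 ± 0.19; adjusted p = 0.00228). The chemokine gene Ccl6 (-1.60), the receptor gene Fgfr1 (-1.10) and the transcription factor gene Klf2 (-0.75) were lower too. Of the 17 identity genes 3 were lower and none higher. MHC class II (0 of 13) and inflammatory cytokine genes had no call in either direction, at medians of 0.80 and 0.29. H2-Aa stood at 8146 against 4156, 3583 against 1893 and 544 against 421 CPM and did not pass (0.82; adjusted p = 0.381).

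Within Ccl8-high cells, the 9 measured genes of MHC class II and co-stimulation were all lower in RP_UV than in either other library. H2-Aa, which encodes the alpha chain of the class II molecule I-A, stood at 8146 CPM in WT_Ctrl, 3583 in WT_UV and 544 in RP_UV. It was lower by a factor of 2.27 (95% interval 2.24 to 2.31) in WT_UV than in WT_Ctrl and by 6.59 (6.32 to 6.86) in RP_UV than in WT_UV. Between the libraries of the same flow cell, RP_UV and WT_Ctrl, the factor was 15 (14.4 to 15.6). All intervals of ratios given here are exact binomial intervals and cover counting error only.

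The chain genes H2-Ab1 and H2-Eb1 followed the same order. H2-Ab1 had 7362, 3157 and 459 CPM and H2-Eb1 had 7096, 3000 and 459. The invariant chain Cd74, which fills the groove until it is loaded, had 15839, 8563 and 1227 CPM. Ciita, the co-activator that switches on class II genes, had 138, 73.1 and 6.2 CPM, lower in RP_UV than in WT_UV by a factor of 11.8 (8.11 to 17.9) and than in WT_Ctrl by 22.3 (15.3 to 33.9). The peptide-loading genes H2-DMa (604, 416 and 144 CPM) and H2-DMb1 (345, 281 and 81.4) differed by less. The co-stimulatory gene Cd40 had 47.3, 37.5 and 15.7 CPM, whereas Cd86 had 99.4, 99.1 and 77.9 and stayed within 2-fold.

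Of 9 measured class II and co-stimulation genes, 8 were past 2-fold lower in RP_UV than in WT_UV, where 2.87% of the 5722 measured genes were past 2-fold lower and 1.22% higher. The median log2 ratio of the list was -2.71 against 0.00 over all genes. In WT_UV against WT_Ctrl 3 of 9 were past 2-fold lower (median -0.89), where 0.751% of genes were lower and 2.59% higher, and in RP_UV against WT_Ctrl 8 of 9 were (median -3.69), where 3.97% were lower and 4.86% higher. MHC class I genes, which present antigen to killer T cells, differed by less. H2-K1 had 1551, 1245 and 1149 CPM and its partner B2m 2691, 2539 and 2356, and the medians of the list of 11 genes were -0.32, -0.12 and -0.45 in the 3 comparisons.

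The class II level differed over the whole range of cells. After thinning to 2000 UMIs, the sum of H2-Aa, H2-Ab1, H2-Eb1 and Cd74 had a median of 75 UMIs per Ccl8-high cell of WT_Ctrl, with quartiles of 39 and 107. The median was 24 UMIs for WT_UV, with quartiles of 7 and 56, and 1 UMI for RP_UV, with quartiles of 0 and 4. At least 1 UMI was seen in 99.4%, 96.4% and 57.4% of thinned cells. The ninetieth percentile of RP_UV cells, 15 UMIs, lay below the tenth percentile of WT_Ctrl cells, 16. Ccl8-low cells had medians of 116, 71 and 8, and their upper quartile in RP_UV was still 68. Lyve1-positive cells had medians of 31, 13 and 1, with an upper quartile of 3 in RP_UV. The low level in RP_UV was thus not particular to the Ccl8-high cells. Without thinning the medians of Ccl8-high cells were 122, 114 and 2. H2-Aa was also detected in 35.7%, 42.6% and 13.7% of T cells and 18.3%, 36.8% and 4.95% of keratinocytes, against 96.9%, 93.4% and 42.1% of Ccl8-high cells. Its level in T cells was 3784, 3730 and 2777 CPM, above that of Ccl8-high cells in WT_UV and RP_UV. Keratinocytes had 258, 262 and 34.7 CPM.

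**Figure D4:**
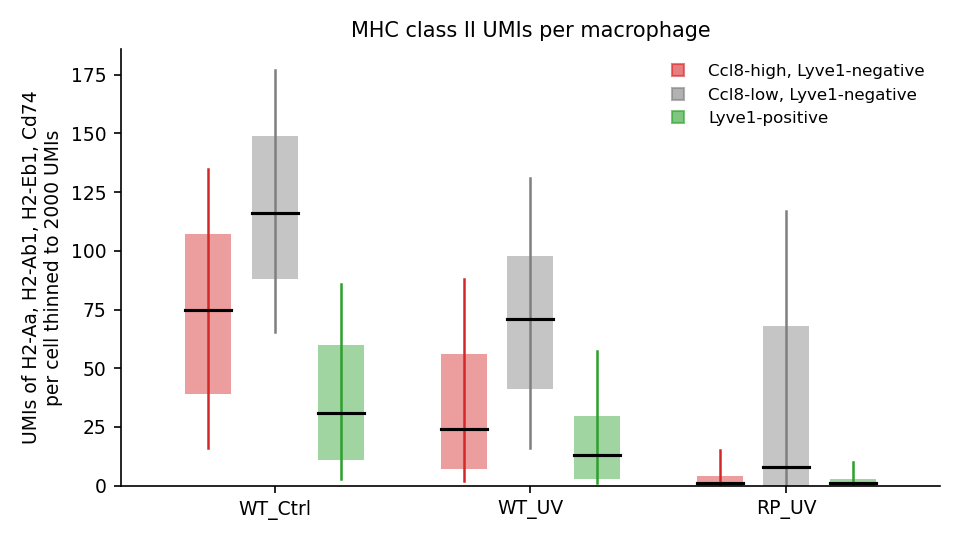
UMIs of H2-Aa, H2-Ab1, H2-Eb1 and Cd74 per cell after thinning each cell to 2000 UMIs, by library and macrophage state, where the black line is the median, the box the quartiles and the thin line the range from the tenth to the ninetieth percentile. The Ccl8-high medians are 75, 24 and 1 from WT_Ctrl to RP_UV, and Ccl8-low cells of RP_UV keep a long upper range.

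The promoters of H2-Aa, H2-Eb1 and H2-DMb1 are shown because 6 of the 9 promoters found for the whole class II list share a run of letters. That list holds 13 genes, measured or not, and promoters were found for 8 of them. None was found for H2-Ab1, Cd74, Ciita, Cd86 and Cd40. The sequences are the 150 bases before the start of transcription, 5′ to 3′ on the strand of the gene, from RefSeq on GRCm38.p6, and the capitals mark GATTGG, a reversed CCAAT box. They lie at chr17:34287824-34287973 on the minus strand for H2-Aa, at chr17:34305717-34305866 on the plus strand for H2-Eb1 and at chr17:34153041-34153190 on the plus strand for H2-DMb1.
H2-Aa: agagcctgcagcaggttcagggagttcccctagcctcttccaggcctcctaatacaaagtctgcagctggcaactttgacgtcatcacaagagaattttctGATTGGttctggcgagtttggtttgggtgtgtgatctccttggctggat
H2-Eb1: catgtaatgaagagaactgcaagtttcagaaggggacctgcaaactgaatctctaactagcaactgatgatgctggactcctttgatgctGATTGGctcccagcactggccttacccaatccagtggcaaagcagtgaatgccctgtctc
H2-DMb1: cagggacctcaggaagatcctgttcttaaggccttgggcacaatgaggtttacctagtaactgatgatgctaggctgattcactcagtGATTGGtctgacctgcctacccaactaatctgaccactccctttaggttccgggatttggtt
The first capital lies 49 bases before the start in H2-Aa, 60 in H2-Eb1 and 62 in H2-DMb1. GATTGG was found on this strand in 1899 of all 32851 promoters of that length (5.78%) and on either strand in 10.9%. In the class II list it was on the gene's strand in 6 of 9 promoters of 8 genes, namely those of H2-Aa, H2-Eb1, H2-DMb1, H2-DMb2, H2-Oa and H2-Ob. Of these, H2-DMb2, H2-Oa and H2-Ob were not among the measured genes described above. The letters were chosen after the sequences had been seen, and a match describes the sequence alone.

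A few single genes differed between the libraries by more than class II. Hal, which encodes histidine ammonia lyase, the enzyme that converts histidine to urocanic acid, had 1408 CPM in WT_Ctrl, 1.91 in WT_UV and 940 in RP_UV. It was lower in WT_UV than in WT_Ctrl by a factor of 736 (498 to 1139), and only by 1.5 in RP_UV than in WT_Ctrl. After thinning it was detected in 88.2%, 0.302% and 70.4% of Ccl8-high cells. Lyve1-positive cells gave the same picture, with 1478, 1.57 and 1432 CPM, and keratinocytes had 13.6, 25.7 and 30.2 CPM. WT_UV is the only library of its flow cell and also the only irradiated wild type, and these cannot be told apart.

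The fatty acid binding gene Fabp4 had 53.5, 7.34 and 129 CPM. In WT_Ctrl it was found in 1.9% of Ccl8-high cells, of which 1 held at least 5 UMIs, and in RP_UV in 13.4% of them against 11.4% of keratinocytes, so its level was not read as a difference. Dbp, a circadian transcription factor, had 19.1 CPM in both wild-type libraries and 116 in RP_UV, higher by a factor of 6.05 (4.78 to 7.76) than in WT_Ctrl.

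Retnla was lower in each irradiated library, with 1677, 515 and 36.3 CPM, and was lower in RP_UV than in WT_Ctrl by a factor of 46.2 (39.6 to 54.3). Clec4b1, a C-type lectin receptor gene, had 195, 60.6 and 15.7 CPM, and Mgl2 2460, 1222 and 546. The membrane protein genes Tmem176b (989, 391 and 224 CPM) and Tmem176a (689, 286 and 140) and the interferon-induced GTPase genes Igtp (105, 34 and 25.2) and Iigp1 (330, 142 and 49.8) had the same order. Slamf7 had 122, 67.9 and 18.1 CPM and ceruloplasmin, Cp, 95.4, 35.9 and 17. All of these were lower in WT_UV than in WT_Ctrl and lower again in RP_UV, except that Igtp did not keep the second step after thinning (log2 ratio 0.04).

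In WT_UV against WT_Ctrl the inflammatory cytokine list was the furthest above all genes among lists other than cell type markers. Of 8 measured genes 6 were past 2-fold higher and none lower, with a median log2 ratio of 2.15 against 0.04 over all genes, and in RP_UV against WT_Ctrl all 8 were higher (2.67). These 8 include Il1b and Ptgs2, which are not read as expression below, and Cxcl2, which after thinning was above T cells in WT_UV alone. The median and the counts without them were not computed. Genes known to respond to the dissociation of tissue had medians of 0.53, 0.36 and 0.68 over 13 genes in the 3 comparisons, and their part in these levels was not tested. Il1b had 37.1, 248 and 338 CPM in WT_Ctrl, WT_UV and RP_UV. Tnf had 10.8, 54.7 and 54.7 CPM. Cxcl2 had 25.8, 236 and 691 CPM. The cytokine gene Il18 had 42.8, 74.7 and 133 CPM.

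These inflammatory genes sat in a minority of the Ccl8-high cells. Il1b was detected in 2.48%, 21.2% and 10.7% of them and Cxcl2 in 2.76%, 17.2% and 29.2%. T cells had Il1b in 11.8%, 17.5% and 31.4% and Cxcl2 in 2.95%, 8.67% and 25.5%, and keratinocytes had Il1b in 2.79%, 7.93% and 4.74% and Cxcl2 in 0.112%, 3.68% and 6.74%. The T cells also carried H2-Aa at 3784, 3730 and 2777 CPM and so were no clean measure of free RNA. After thinning to 2000 UMIs, Il1b was detected in 2.05%, 11.6% and 8.49% of Ccl8-high cells and 11.2%, 11.7% and 60% of T cells, of which 25 were left in RP_UV. The Il1b of Ccl8-high cells was thus not above that of T cells at this depth in any library. Thinned keratinocytes had Il1b in 1.68%, 2.67% and 1.52% of cells, below the Ccl8-high cells in each library but by little in WT_Ctrl. As T cells and keratinocytes gave different readings, Il1b was not read as expression or as a difference between libraries. Thinned Cxcl2 stood at 2.16%, 10.4% and 21.8% against 2.41%, 4.85% and 36%, above T cells in WT_UV alone. Leaving out cells with UMIs of another cell type turned Il1b between RP_UV and WT_UV from a log2 ratio of 0.44 to -0.87, and it lowered it between RP_UV and WT_Ctrl to 1.60.

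Other genes higher in WT_UV than in WT_Ctrl were on the lists of matrix remodelling and stress. Of 12 measured matrix genes 8 were past 2-fold higher and 1 lower than in WT_Ctrl (median 1.52), and between RP_UV and WT_UV 2 were higher and 3 lower (0.04). Between RP_UV and WT_Ctrl 7 were higher and 2 lower (1.73). The inhibitor of metalloproteases Timp1 had 3.11, 28.2 and 63.3 CPM and the urokinase receptor gene Plaur 3.35, 32.5 and 40.3. Thbs1, a matrix glycoprotein gene, had 0, 33.5 and 33.2 CPM, where 0 UMIs allow up to 0.717 CPM in WT_Ctrl. The gelatinase gene Mmp9 went the other way, with 83.2, 47.2 and 19.5.

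The p53 target Cdkn1a, which stops the cell cycle, had 94, 314 and 299 CPM, and the stress cytokine gene Gdf15 8.13, 29.4 and 60. Metallothioneins Mt1 (271, 481 and 687 CPM) and Mt2 (14.6, 45.6 and 91.6), which bind metal ions, and the thioredoxin reductase gene Txnrd1 (18.2, 35 and 61.5) had the same order. The list of 6 measured NRF2 targets and metallothioneins had medians of 0.64, 0.69 and 1.24 in the 3 comparisons. Fabp5, a fatty acid binding gene, had 110, 752 and 1278 CPM, but it was detected in 73.8% of Ccl8-high cells of RP_UV against 77.5% of keratinocytes, which express it themselves, so its level was not read as a difference. The regulators Id2 (18.9, 101 and 52.4 CPM), Nr4a1 (13.9, 74.6 and 41.8) and hexokinase Hk2 (15.1, 53.6 and 29.7) were highest in WT_UV.

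Chemokines of the Ccl8 cluster were higher in both irradiated libraries and highest in RP_UV. Ccl2 had 109 CPM in WT_Ctrl, 236 in WT_UV and 790 in RP_UV, higher by a factor of 2.17 (1.96 to 2.4) in WT_UV than in WT_Ctrl, by 3.35 (3.19 to 3.51) in RP_UV than in WT_UV and by 7.26 (6.58 to 8.02) in RP_UV than in WT_Ctrl. Ccl7 had 219, 350 and 1034 CPM and Ccl12 145, 172 and 533. After thinning, at least 1 UMI of Ccl2, Ccl7 or Ccl12 was found in 39.3%, 55.5% and 76% of Ccl8-high cells. Ccl2 was found in 23.4%, 59.2% and 65% of cells without thinning, against 1.64%, 5.24% and 9.8% of T cells and 2.57%, 6.23% and 6.74% of keratinocytes.

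Of 12 measured chemokine genes 4 were past 2-fold higher and 2 lower in WT_UV than in WT_Ctrl (median 0.50), and 5 were higher and 1 lower in RP_UV than in WT_UV (0.61). In RP_UV against WT_Ctrl 7 were higher and 2 lower (1.87). Ccl4, which attracts leukocytes, had 31.6, 43.7 and 135 CPM, Ccl3 11.7, 51.9 and 70.2 and the interferon-induced Cxcl10 10.3, 36.3 and 40.3. Cxcl9 (87.3, 40.5 and 14.2 CPM) and Ccl24 (415, 156 and 142) were the 2 that were lower. Ccl2 had the same order in the other macrophages, with 75.8, 149 and 536 CPM in Ccl8-low cells and 78.4, 216 and 553 in Lyve1-positive cells.

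The acute phase gene Saa3 and the chitinase-like gene Chil3 were seen mainly in RP_UV. Saa3 had 0.478, 13.5 and 200 CPM and was detected in 17.8% of Ccl8-high cells of RP_UV, against 1.96% of T cells and 3.68% of keratinocytes. Chil3, which has near-identical copies, had 0, 12 and 195 CPM and was detected in 16.2% of those cells, against 1.96% and 0.737%. Neither was particular to the Ccl8-high cells. In RP_UV Saa3 had 303 CPM in Lyve1-positive cells (26.8% of cells) and 39.1 in Ccl8-low cells (9.27%). Chil3 had 585 CPM in Ccl8-low cells (32.7%) and 34.9 in Lyve1-positive cells (4.04%). S100a9, a calprotectin subunit gene of neutrophils, had 0, 3.75 and 150 CPM, but its 6.4% of cells in RP_UV lay under the 15.7% of T cells and 7.79% of keratinocytes. Hbb-bs, a haemoglobin gene, had 217 CPM in RP_UV, found in 0.582% of the cells, of which 1 held at least 5 UMIs. The neutrophil markers summed to 39.7, 80.6 and 333 CPM with 3, 7 and 9 of 10 detected and S100a8 and S100a9 at 0 in WT_Ctrl, and their part in these levels was not tested.

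Ptgs2, the gene overexpressed in RP_UV, had 0.478, 40.2 and 175 CPM in Ccl8-high cells, from 2 UMIs in WT_Ctrl. It was detected in 0.19%, 5.48% and 27.5% of these cells. T cells had it in 0.656%, 5.24% and 29.4% and keratinocytes in 3.69%, 5.67% and 56.3%, at 588 CPM in RP_UV, so the share in Ccl8-high cells was not above that of T cells in RP_UV and was not read as expression. Whether reads of the rat transgene align to the mouse gene is not given in the sources used here. Of the prostaglandin genes, Hpgd, which inactivates prostaglandins, had 439, 211 and 96.9 CPM. Ptger4, a receptor for prostaglandin E2 that raises cyclic AMP, had 41.8, 41.8 and 48, and Hpgds, the synthase of prostaglandin D2, 167, 154 and 124. Over 8 measured genes of the list the medians were 0.12, 0.17 and 0.03, with 1 gene past 2-fold in each direction in each comparison.

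**Figure D5:**
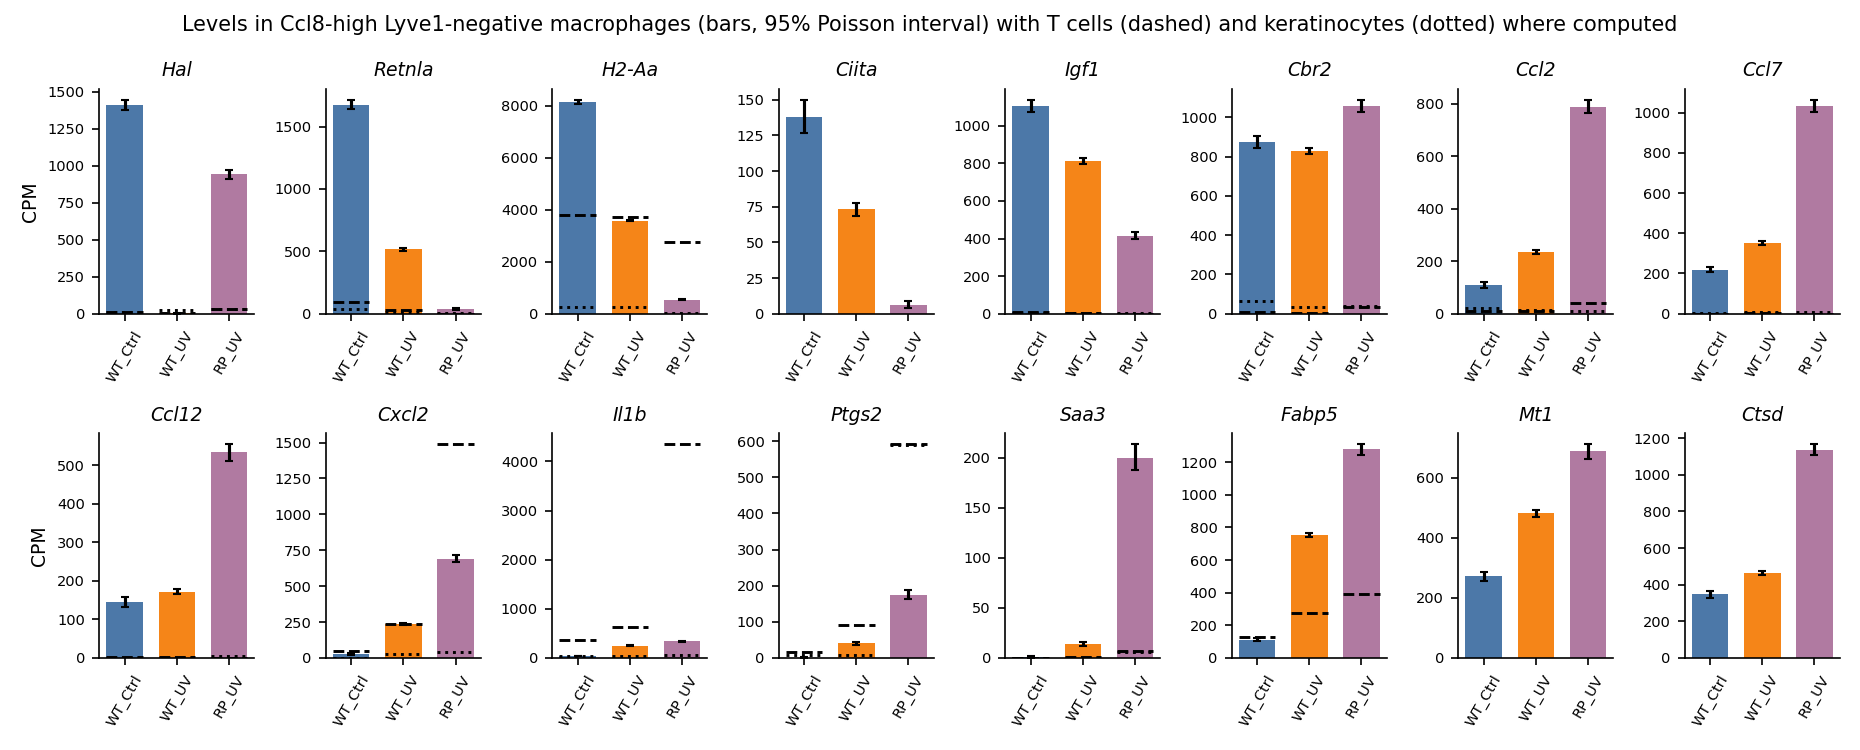
Level (CPM of summed UMIs, linear axes that start at 0 and differ between panels) of genes named in the text in Ccl8-high Lyve1-negative macrophages of the 3 libraries, with exact Poisson 95% intervals for counting error, and the level in T cells (dashed) and keratinocytes (dotted) where computed. Hal is near 0 in WT_UV alone, Retnla, H2-Aa, Ciita and Igf1 step down from WT_Ctrl to RP_UV, and Ccl2, Ccl7 and Ccl12 are highest in RP_UV. T cells lie above the bars for Il1b, Cxcl2 and Ptgs2 in all 3 libraries. They also do so for H2-Aa in WT_UV and RP_UV and for Fabp5 in WT_Ctrl.

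Most identity genes stayed within 2-fold between the libraries. Of 17 measured identity genes 3 were past 2-fold lower in WT_UV than in WT_Ctrl (median -0.44), and 1 was lower in RP_UV than in WT_UV (-0.03), where 0.751% and 2.87% of all measured genes were. In RP_UV against WT_Ctrl 4 were lower and 1 higher (-0.25), where 3.97% and 4.86% were. Igf1 had 1107, 814 and 416 CPM and was lower in RP_UV than in WT_Ctrl by a factor of 2.66 (2.52 to 2.8). Cbr2 had 874, 827 and 1059 CPM, Cd163 873, 832 and 777, and Folr2 873, 568 and 763. The selenium carrier gene Selenop (6613, 5369 and 3809 CPM), the clotting factor gene F13a1 (2720, 2006 and 1347) and Clec10a (1528, 965 and 770) were lower in each irradiated library, whereas the scavenger receptor gene Stab1 had 303, 252 and 489. The transcription factor list had medians of 0.11, -0.13 and 0.10.

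Ccr2 separated the irradiated libraries, with 157 CPM in WT_Ctrl, 263 in WT_UV and 50.5 in RP_UV, lower in RP_UV than in WT_UV by a factor of 5.21 (4.55 to 5.98). Of 12 monocyte-derived genes 5 were past 2-fold higher in WT_UV than in WT_Ctrl (median 0.72), and 1 was higher and 3 lower in RP_UV than in WT_UV (-0.11). In RP_UV against WT_Ctrl 3 were higher and 1 lower (0.00). In WT_UV Ccr2 fell along the Ccl8 UMIs of the cell. It had 784 CPM in the 141 cells with 5 to 9, 474 in the 338 cells with 10 to 99 and 74 in the 561 cells with 100 or more. WT_Ctrl cells with 100 or more had 62.7 CPM. In the other macrophages Ccr2 was lowest in RP_UV too, at 305 CPM in Ccl8-low cells and 38.1 in Lyve1-positive cells.

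Complement genes were mixed in RP_UV, where 3 of 9 measured genes were past 2-fold lower than in WT_UV and 4 lower and 1 higher than in WT_Ctrl, at medians of -0.40 and -0.67. C4b had 579, 454 and 201 CPM and C3 44.5, 27.7 and 11.1, whereas the properdin gene Cfp had 444, 531 and 731. Between WT_UV and WT_Ctrl the list stayed near all genes, with a median of -0.13 whose sign depended on the processing.

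Some lysosomal genes and the receptor gene Trem2 were highest in RP_UV, and other genes of the same list were not. The cathepsin genes Ctsd (347, 465 and 1137 CPM) and Ctsl (459, 719 and 1541), which digest protein in lysosomes, were higher in RP_UV than in WT_UV by factors of 2.45 (2.36 to 2.54) and 2.14 (2.08 to 2.21). Trem2, a receptor for lipids, had 32.5, 50.6 and 130 CPM, and Spp1, which encodes osteopontin, 1.91, 8.8 and 45.6. Apoe, which carries lipid out of cells, had 16156, 8960 and 14902, and the fatty acid receptor gene Cd36 199, 78.4 and 84.5. The lysosomal lipase gene Lipa had 188, 127 and 101 CPM. Of the 18 measured genes of the list 2 were past 2-fold higher and 1 lower in WT_UV than in WT_Ctrl, 3 and 1 in RP_UV than in WT_UV and 6 and 1 in RP_UV than in WT_Ctrl, with medians of 0.03, 0.27 and 0.40. The galectin gene Lgals1 had 1251, 2062 and 3699 CPM, Hmox1 302, 417 and 663, and the ferritin gene Fth1 7635, 5964 and 9284.

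Further genes high in RP_UV were the interleukin 4 receptor gene Il4ra (57.4, 134 and 291 CPM), the gap junction gene Gja1 (13.1, 42.7 and 119), Eva1b (15.1, 60.4 and 115) and the paired receptor gene Pira2 (19.6, 99.7 and 115). The lactate dehydrogenase gene Ldha had 114, 199 and 266, the transcription factor gene Cebpb 180, 303 and 416, and Nfkbia 187, 307 and 487. All of these were higher in WT_UV than in WT_Ctrl and higher again in RP_UV. Lists that stayed near all genes in WT_UV against WT_Ctrl, RP_UV against WT_UV and RP_UV against WT_Ctrl were scavenger and efferocytosis receptors (medians 0.05, 0.10 and -0.01), interferon-stimulated genes (-0.19, 0.02 and -0.18), oxidative phosphorylation (0.34, 0.17 and 0.49) and the 3 measured cell cycle genes (0.20, 0.05 and 0.26).

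Transcripts of other cell types differed between the summed cells too. Keratinocyte markers summed to 789, 1237 and 1633 CPM, led by Krt10 in WT_Ctrl and by Fabp5 in the other libraries, with 12, 13 and 13 of 13 detected. Krt10 itself had 206, 125 and 34.3 CPM and was detected in 18.9%, 47% and 15.9% of Ccl8-high cells against 18.7%, 39.3% and 7.84% of T cells. Fibroblast markers summed to 325, 128 and 341, dendritic cell markers to 576, 498 and 162, led by Cd209a, and B cell markers to 551, 311 and 106, almost all from the immunoglobulin gene Ighm (518, 295 and 97.6) with Ms4a1 at 0 in each library. In sums of cells, fewer cells that carry a transcript and less of it per cell cannot be told apart, and the part of these markers in the results was not tested.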

How the data were processed

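Single-cell 3' libraries of CD45+ enriched dorsal skin were used, 1 per group. The files deposited by the authors hold whole-number UMI counts that were not normalized, from Cell Ranger 6.1.1 per the file headers and aligned to mm10 per the labels. The filter on cells followed the study, with over 200 and under 4000 genes (under 6000 in WT_UV) and under 10% of UMIs from mitochondrial genes. Macrophages and the Ccl8-high Lyve1-negative cells were chosen from UMI counts by the rule in the text. The cells, the gene lists and the tests were chosen with earlier results of these data known.

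UMIs were summed over the cells of a library and state and given as counts per 1000000 of their UMIs (CPM). Counts between libraries have exact Poisson or binomial 95% intervals, which cover counting error only. Log2 ratios are on log2(CPM + 1), and called genes are past 2-fold among 5722 genes with a mean of at least 20 CPM. States were compared with edgeR 4.0.16 (R 4.3.3; TMM, filterByExpr, quasi-likelihood test, Benjamini-Hochberg) on 9 sums with the library as a block. On simulated counts of 11108 genes for the contrast with Ccl8-low cells, the step recovered 100% of genes changed by 2-fold, with 7 false calls. The changed genes had at least 20 CPM, and the simulated libraries differed in depth alone. It thus cannot show how the test does where libraries differ, as they do here. Log2 differences between states are edgeR's. Standard errors are the log2 difference over the square root of F. For thinned values each cell was drawn down to 2000 UMIs, which left out 123, 48 and 105 Ccl8-high cells in WT_Ctrl, WT_UV and RP_UV. No doublets were removed in the main values. T cells had at least 2 UMIs of Cd3e and Cd3d together and keratinocytes at least 5 of Krt14 and Krt5 together, both with under 4 of the 7 macrophage genes. Genes named by rank were the 12 highest and 12 lowest with a mean of at least 50 CPM, without mitochondrial, ribosomal and predicted genes, and others were taken from the lists. A few genes of the lists and ranks are not reported here. Python 3.11.15 and scipy 1.17.1 were used besides. Alternatives were other Ccl8 limits, filters, pseudocounts, denominators and normalizations, thinning, DESeq2 1.42.0, and each library left out.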

Additional observations from a re-analysis of the deposited data

Results flagged for a closer look

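For 2 genes the difference between RP_UV and WT_UV went opposite ways in Ccl8-high and in Ccl8-low Lyve1-negative macrophages. C4b was lower in RP_UV in Ccl8-high cells, at 201 against 454 CPM (log2 ratio -1.17), and higher in Ccl8-low cells, at 35.8 against 11.6 CPM (1.54). Mmp9 stood at 19.5 against 47.2 CPM (-1.24) in Ccl8-high cells and at 31.2 against 7.74 CPM (1.88) in Ccl8-low cells. Each value rests on 1 library, and the difference between the states was not tested.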

How the results depend on the processing

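The share of Ccl8-high cells among macrophages in WT_UV relative to WT_Ctrl was 0.714. It was 0.825 with a Ccl8 limit of 3 UMIs, 0.662 with 10, 0.797 after thinning, 0.614 with a limit relative to the UMIs of the cell, 0.663 among macrophages without Lyve1 and 1.01 of all kept cells. RP_UV relative to WT_UV was 0.828, but 1 with the relative limit, 1.04 among macrophages without Lyve1 and 0.711 of all kept cells. RP_UV relative to WT_Ctrl was 0.591, with 0.665, 0.517, 0.696, 0.716 and 0.691 for limits of 3 and 10, thinning, all kept cells and macrophages without Lyve1.

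Genes past 2-fold higher and lower in WT_UV than in WT_Ctrl numbered 148 and 43, but 576 and 275 with no filter and 36 and 15 at a mean of 100 CPM, and 93 were higher with a pseudocount of 10. For RP_UV over WT_UV the 70 and 164 became 405 and 629, and 20 and 50, with 100 lower at a pseudocount of 10 and 117 higher with 1 upper gene limit of 4000. For RP_UV over WT_Ctrl the 278 and 227 became 915 and 875, and 88 and 63.

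Against Ccl8-low cells the 1505 and 1816 calls became 745 and 852 after thinning, 360 and 373 with no library block, 739 to 1164 and 920 to 1442 with 1 library left out, and 1073 and 1396 with DESeq2. Against Lyve1-positive cells the 67 and 57 became 295 and 225 with no filter, 0 and 0 with no library block, 144 and 90 with a limit of 3, and 16 to 41 and 10 to 45 with 1 library left out. There 29 were higher with a limit of 10, 115 without doublet-like cells and 37 with the gene limit of 4000. The libraries carry no replicate numbers beyond 1, so the block is the library itself, and the states were compared within each library. Between groups no paired analysis was possible because each group had 1 sample.

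Of 264 log2 ratios of genes between libraries, 10 changed sign under some alternative, all of them from values under 1 in size. In WT_UV over WT_Ctrl these were C4b (0.04 after thinning), Cbr2 (0.05 with a limit of 10, 0.08 with the relative limit), Ccl4 (-0.11 with the relative limit), Cd163 (0.06, 0.18 and 0.10 with a limit of 10, thinning and the relative limit) and Krt10 (0.22 over all deposited barcodes, 0.30 without doublet-like cells). In RP_UV over WT_UV they were Cd163 (0.04) and Plaur (-0.08) with a limit of 3, Igtp (0.04) after thinning, and Il1b (-0.87) and Plaur (-0.25) without doublet-like cells. In RP_UV over WT_Ctrl it was Apoe (0.04 after thinning, 0.07 as a mean over cells). The complement median in WT_UV over WT_Ctrl was 0.03, 0.08, 0.04 and 0.05 with a limit of 10, thinning, the relative limit and the gene limit of 4000. No state difference of the 109 tested changed sign. The cause of these shifts was not tested. Depth limits what can be said of low genes, most of all in WT_Ctrl and RP_UV, and 1 library per group leaves the spread between animals unknown.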
